A study of Homo sapiens with 7 samples.

Results

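A set of 10 heterogeneous nuclear ribonucleoprotein (hnRNP) genes was followed at gene and isoform level: HNRNPA1, HNRNPA2B1, HNRNPA3, HNRNPD, HNRNPDL, HNRNPF, HNRNPK, HNRNPL, HNRNPR and HNRNPU. They were chosen by name, their symbols were matched to the Ensembl gene identifiers of the isoform table, and all 10 were found among 14294 listed genes. They hold 2583 of 386982 listed isoforms, of which 72 carry a reference transcript identifier and 2511 a hashed identifier without a reference name.

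The series sequenced polyadenylated RNA of the human embryonic stem cell line HUES66 as PacBio long reads, with cDNAs joined into 8-fold arrays. It was designed as an isoform-specific knockdown of RBFOX2, a splicing regulator. All 7 libraries came from piggyBac-labelled cells under 1 µg/ml doxycycline for 24 h. The control is labelled WT, and the others are labelled RBFOX2 with id 178147 (G3), 178149 (G5), 178136 (G11), 178135 (G12), 178145 (G13) and 178146 (G14); the labels do not say which isoform an id denotes, or whether a line is 1 clone. Each group is 1 library, so no difference below has a replicate check and no p-value is given. Intervals are 95% and cover counting error only, and reads carry no stated molecular identifiers.

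The libraries held from 16801842 reads (control) to 26678538 (G12). Levels are given in TPM, the deposited read count scaled to the library total. RBFOX2 itself stood at 42.1 TPM in G3, 55.9 in G13, 82.9 in G11, 88.5 in G12, 96.8 in G5, 106 in G14 and 107 in the control. Its total was therefore lowest in G3 and G13, and in G14 it was 98.6% of the control; a gene total does not check the knockdown of a single isoform. Of 9 pluripotency markers, 8 were listed with a mean of at least 5 TPM and SOX2 was not listed. Their summed level ran from 1618 to 2072 TPM, while listed mesoderm markers summed to at most 0.119 TPM and endoderm markers to at most 0.179 TPM. Trophoblast markers summed to 0.937 to 2.41 TPM, and neural markers to 101 to 140 TPM, nearly all of it OTX2, with PAX6 and SOX1 not listed. In bulk RNA, fewer cells with a transcript and less of it per cell cannot be told apart.

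The hnRNP proteins are abundant nuclear proteins that coat nascent transcripts and act in splicing, export, stability and translation. Members of the A/B type bind through RNA recognition motifs and often favour exon skipping, HNRNPF binds runs of G, HNRNPK binds C-rich RNA through KH domains, HNRNPL binds CA-rich RNA, and HNRNPU is a nuclear scaffold protein. Many hnRNP genes regulate their own transcripts through alternative exons. The long-read table shows both the level of each gene and which transcript forms make it up.

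The stretches below belong to forms whose share of reads varied between the libraries, with 1 exon whose host isoform kept its share shown beside them. All are coding sequence of GENCODE 29 (GRCh38), 5′ to 3′ on the transcript. The first is the 57-nt extension of HNRNPU exon sequence at chr1:244863617-244863673 on the minus strand, which separates the form of 825 amino acids from that of 806. The HNRNPL stretches follow, the coding part of exon 1 at chr19:38849700-38849966 and exon 2 at chr19:38847316-38847434, both on the minus strand, because HNRNPL isoforms differed in whether they reached into exon 1. The last is the 36-nt exon at chr7:26197831-26197866, minus strand, that distinguishes HNRNPA2B1 ENST00000354667.8, the B1 form, from ENST00000356674.
HNRNPU 57-nt extension: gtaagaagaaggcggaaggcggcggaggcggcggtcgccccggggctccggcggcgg
HNRNPL exon 1, coding part: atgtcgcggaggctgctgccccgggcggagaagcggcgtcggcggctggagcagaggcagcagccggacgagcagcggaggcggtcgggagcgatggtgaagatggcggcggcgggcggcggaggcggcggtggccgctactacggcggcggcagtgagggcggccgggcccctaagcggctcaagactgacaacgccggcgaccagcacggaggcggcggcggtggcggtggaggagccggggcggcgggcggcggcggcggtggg
HNRNPL exon 2: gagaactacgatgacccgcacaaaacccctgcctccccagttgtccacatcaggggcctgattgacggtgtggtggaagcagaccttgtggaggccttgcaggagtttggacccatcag
HNRNPA2B1 36-nt exon: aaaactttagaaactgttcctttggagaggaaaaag
The HNRNPU extension is 78.9% G or C and the HNRNPL exon 1 stretch 78.3%. HNRNPL exon 2 is 58.0% G or C and the HNRNPA2B1 exon 33.3%.

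Across the 10 genes, HNRNPR was higher than the control in every G library, and HNRNPL spread most, from well above the control in G3 to well below it in G13. HNRNPA1, HNRNPA2B1, HNRNPA3, HNRNPD and HNRNPF stayed within 1.5-fold of the control throughout, except that HNRNPA2B1 and HNRNPD passed that line in some libraries under other settings. Of 60 gene-by-library values, 13 were at least 1.5-fold from the control on the log2(TPM + 0.5) scale, 9 higher and 4 lower. Over all 7877 genes with a mean of at least 5 TPM, 30.2% of such values were that far away, a larger share than among these genes. With a trend in transcript length and GC content removed, the split became 6 higher and 11 lower, and HNRNPA2B1 lay at -0.74 in G12, -0.87 in G13 and -0.73 in G14. All 6 comparisons use the same control library.

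The members' median log2 ratio was 0.32 in G3, where that of all genes compared was 0.12. The pairs of member and all-gene medians were 0.22 and 0.14 for G5, 0.10 and -0.04 for G11, and -0.18 and -0.16 for G12. They were -0.22 and -0.21 for G13, and 0.15 and -0.10 for G14. Thus the members' median lay above that of all genes in G3, G5, G11 and G14 and close to it in G12 and G13. Removing the length and GC trend changed the sign of the members' median in G11, to -0.068, and in G14, to -0.053. Scaling by median-of-ratios size factors raised log2 ratios by 0.16 in G13, 0.14 in G12 and 0.11 in G14. Gene levels are not ranked against each other, because the deposited TPM has no length term.

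**Figure D1:**
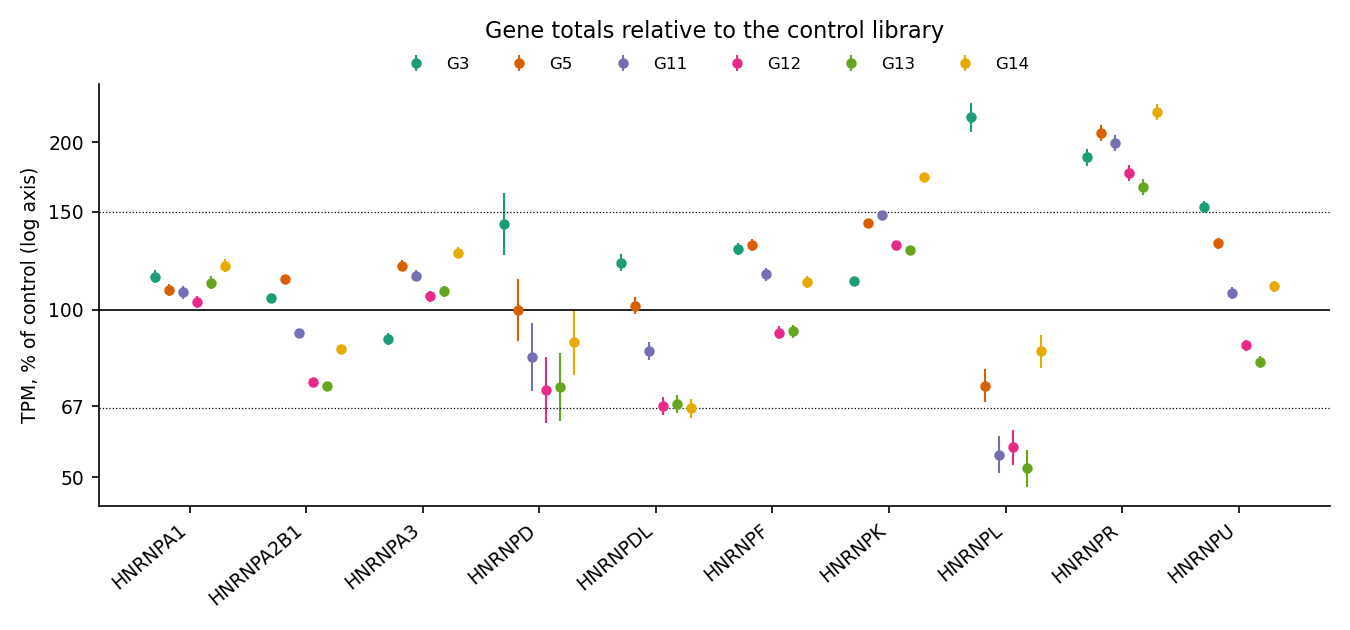
TPM of the 10 genes in each G library as a percent of the control (log axis). Points are single libraries, bars are exact 95% intervals for counting error, and dotted lines mark 1.5-fold. All 6 HNRNPR points lie above 150%, and HNRNPL runs from 222% in G3 to 51.8% in G13.

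HNRNPR (ENSG00000125944, chr1:23303771-23344336, minus strand) encodes a relative of SYNCRIP that binds RNA through recognition motifs. In ascending order its level was 280 TPM in the control, 466 in G13, 493 in G12, 527 in G3, 558 in G11, 582 in G5 and 635 in G14. The control was the lowest library by a wide margin, and all 6 G libraries lay above it, with no neighbours in the order within counting error. The smallest rise was to 166% of the control in G13 (interval 161 to 172) and the largest to 226% in G14 (219 to 234). Over all genes compared, the percentage that rose 1.5-fold or more was 3.71% in G5, 5.08% in G12, 6.53% in G11, 6.86% in G13, 8.71% in G3 and 15.5% in G14.

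All of these HNRNPR ratios share the single control library. When the median of the other 6 libraries served as reference, none of the 6 values reached 1.5-fold: on the log2 scale G14 lay at 0.32, G5 at 0.19, G11 at 0.13, G3 at 0.00296, G12 at -0.14 and G13 at -0.22. With the length and GC trend removed, G12 and G13 lay at 0.57 and 0.40, under the 1.5-fold line. By the SD of the log2 difference over the 7 libraries, the genes nearest to HNRNPR were VPS36 (0.04) and USP1 (0.08). VPS36, a subunit of an endosomal sorting complex, had 19.1 TPM in the control, and its 6 G values ran from 33.4 to 42.4 TPM. SYNCRIP, the close relative, had 409 TPM in the control, and its 6 G values ran from 437 to 488.

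The rise of HNRNPR came with little change in its makeup. Its leading isoform, hashed isoform 1, whose 5′ end lies 56 nt from a RefSeq start, held 43.6% of reads in the control and between 40.9% and 45.1% in the G libraries. ENST00000302271.11 held 20.1% in the control and 19.5% to 20.5% elsewhere. A 114-nt coding exon (chr1:23333518-23333631) was included in 92.4% of the reference-named reads of the control and in 91.2% to 92.3% in the G libraries. Every one of these intervals overlapped that of the control, so a change in this exon was not detectable at this depth.

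HNRNPL (ENSG00000104824, chr19:38836388-38852347, minus strand) encodes a regulator of exon inclusion that binds CA repeats. From low to high the gene stood at 49.7 TPM in G13, 52.7 in G11, 54.3 in G12, 70.1 in G5, 80.8 in G14, 95.9 in the control and 213 in G3. Only G3 lay above the control; at the low end, G13 could not be separated from G11, nor G11 from G12, beyond counting error. G3 reached 222% of the control (interval 209 to 235). G11 lay at 54.9%, G12 at 56.6% and G13 at 51.8% (interval 48.0 to 55.9). A fall of 1.5-fold or more was seen for 22.5% of all genes in G11, 22.6% in G12 and 29.1% in G13. Against the median of the other 6 libraries, G11 was at -0.51 and G12 at -0.47 on the log2 scale, short of 1.5-fold.

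No HNRNPL row carried a reference transcript identifier, so its 119 isoforms were described by their ends. Hashed isoform 1, whose 5′ end lies 10 nt from a RefSeq start in exon 1, held 16.6% in G12, 16.8% in G13, 20.8% in G11, 37.8% in G14, 38.3% in G5, 45.0% in the control and 75.3% in G3. Hashed isoform 2 begins 1 nt from the 5′ edge of exon 2, the exon printed above, and held 6.27% in G3, 17.1% in the control, 22.4% in G5, 28.0% in G14, 31.1% in G11, 35.7% in G12 and 38.7% in G13. Hashed isoform 3 begins 3 nt from the 5′ edge of exon 3 (chr19:38845853-38846090) and held 4.98% in G3, 13.3% in the control, 17.8% in G5, 21.4% in G14, 25.5% in G11, 29.8% in G13 and 31.2% in G12. Hashed isoform 1 was thus high where the other 2 were low, and G3 and G13 lay near opposite ends.

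Summed by 5′ end, the isoforms that reach a RefSeq start varied more widely than those that begin at an internal exon edge. The 88 isoforms whose 5′ end lies within 50 nt of a RefSeq start gave 14.8 TPM in G13, 16.5 in G12, 21.2 in G11, 39.2 in G14, 40.1 in G5, 63.7 in the control and 187 in G3. Relative to the control, G3 was at 294% (interval 274 to 315) and G13 at 23.2% (20.5 to 26.2). The spread of this group lay largely in hashed isoform 1, at 43.2 TPM in the control, 160 in G3 and 8.34 in G13. Hashed isoform 5, with the same 5′ end, stood at 138% of the control in G3 and 47.1% in G13. Hashed isoform 4, which begins near another RefSeq start, stood at 111% in G3 and 48.1% in G13. The 8 isoforms beginning within 5 nt of the 5′ edge of an internal exon gave 24.7 TPM in G3, 29.7 in G5, 30.5 in the control, 31.1 in G11, 34.6 in G13, 37.3 in G12 and 40.8 in G14. Their G5 and G11 values lay within counting error of the control, and G3 was lower at 81.1% (71.2 to 92.3). Above the control lay G13 at 113% (101 to 127), G12 at 123% (110 to 137) and G14, the highest, at 134% (120 to 150). The remaining 23 isoforms were scarce, from 7 reads in G5 to 29 in the control. They gave 1.73 TPM in the control and 0.275 TPM in G5, 15.9% of it (interval 5.89 to 37.2). Only isoforms with a control read are listed, which by itself favours lower G values for such scarce isoforms. No fall can be read from them.

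The share of HNRNPL reads beginning at internal exon edges was therefore 11.6% in G3, 31.8% in the control, 42.3% in G5, 50.5% in G14, 59.1% in G11, 68.8% in G12 and 69.5% in G13. With these isoforms left out of the sum, the log2 ratio of HNRNPL went from 1.14 to 1.51 in G3, from -0.86 to -1.58 in G11, from -0.82 to -1.92 in G12 and from -0.94 to -2.08 in G13. GC-rich genes and short genes as classes varied between the libraries. HNRNPL, at 53.1% over its annotated transcripts, was not among the 1548 genes richest in GC (at least 58.0%). The coding part of its exon 1 alone is 78.3% G or C. The median log2 ratio of those 1548 genes was -0.90 in G14, -0.88 in G13 and -0.62 in G12. It was -0.55 in G11, -0.10 in G5 and 0.21 in G3. By its mean annotated length of 1537 nt (percentile 17.7), HNRNPL was among the 1548 shortest genes. Their median was -1.01 in G14, -0.84 in G5, -0.72 in G11, -0.53 in G3, -0.42 in G13 and -0.38 in G12. The part of GC content or length in the HNRNPL result was not tested. With the length and GC trend removed, HNRNPL lay at 1.46 in G3, -0.65 in G11, -0.80 in G12 and -0.99 in G13, still past 1.5-fold. G5 then lay at -0.0042 in place of -0.45, and G14 at 0.020 in place of -0.25. Whether reads beginning at an exon edge are complete transcripts was not tested either.

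**Figure D2:**
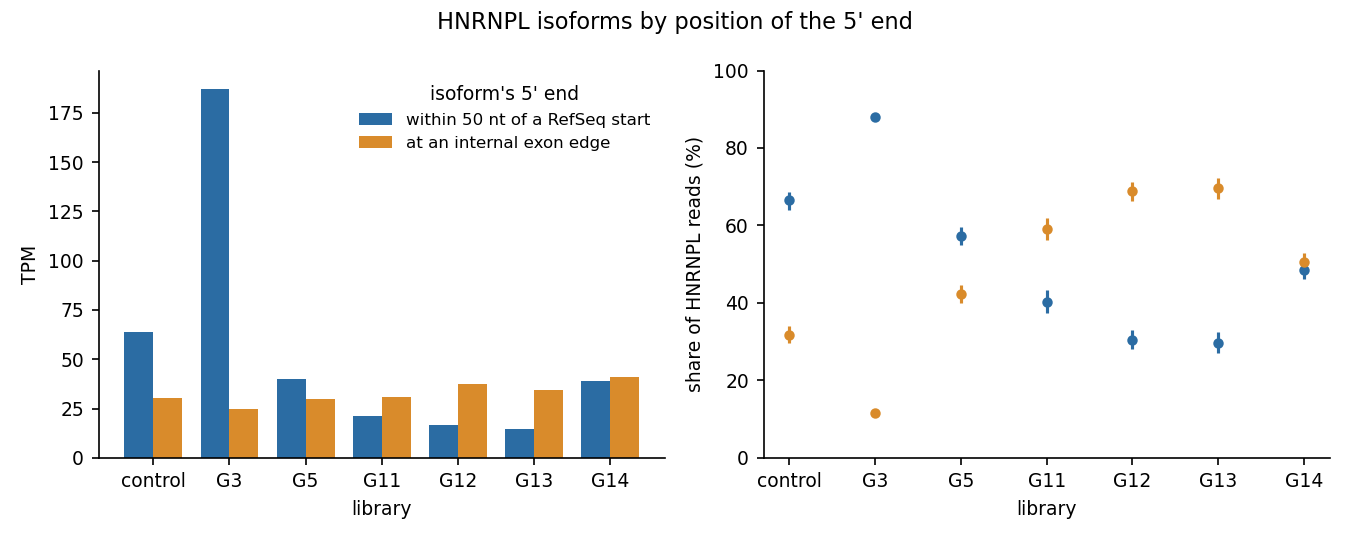
HNRNPL isoforms grouped by the position of their 5′ end in each library. Left, bars give TPM from 0; right, points give the share of HNRNPL reads with Wilson 95% intervals. The RefSeq-start group runs from 14.8 to 187 TPM and the exon-edge group from 24.7 to 40.8 TPM.

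By the SD of the log2 difference over the 7 libraries, the genes nearest to HNRNPL in pattern were KCNG1, a potassium channel subunit (0.17), and PNRC1, a nuclear receptor coregulator (0.17). PNRC1 stood at 17.0 TPM in the control, 43.3 in G3 and 7.98 in G13. The paralogue HNRNPLL was lowest in the control, at 270 TPM, and highest in G14, at 563 TPM.

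HNRNPU (ENSG00000153187, chr1:244840638-244864560, minus strand) encodes the scaffold attachment protein of the nuclear matrix. Its total, lowest library first, was 558 TPM in G13, 598 in G12, 693 in the control, 743 in G11, 763 in G14, 912 in G5 and 1062 in G3. G3 was highest at 153% of the control (interval 150 to 157), and G12 and G13 were the only libraries below it. The G3 log2 ratio, 0.62, was 0.58 with the length and GC trend removed and 0.56 against the median of the other 6 libraries, just under the 1.5-fold line. Its main isoform, ENST00000444376.7, held 73.8% of reads in the control and from 69.5% in G3 to 80.8% in G13.

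The HNRNPU form with the GC-rich 57-nt extension printed above varied far more than the form without it. Among reads of both forms its share was 3.22% in G11, 3.47% in G13, 3.74% in G12, 5.97% in G5, 9.32% in the control, 9.49% in G14 and 17.2% in G3. Only the G14 interval overlapped that of the control; G3 lay above it and the other 4 below. In TPM the extended form stood at 52.6 in the control, 153 in G3 (291% of the control, interval 270 to 314) and 16.2 in G13 (30.9%, 27.3 to 34.9), while the form without it stayed between 88.2% and 144% of the control. None of these shares moved by 10 points, the size used to call an isoform.

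The A/B-type genes come next. HNRNPA1 (ENSG00000135486, chr12:54280193-54287088, plus strand) encodes a core hnRNP protein that represses exon inclusion. Its total was nearly level, at 572 TPM in the control, 591 in G12, 615 in G11, 621 in G5, 640 in G13, 655 in G3 and 686 in G14. The control was the lowest library and G14 the highest, at 120% of it (interval 117 to 123).

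Within that level total, the isoform shares of HNRNPA1 differed between the libraries. ENST00000340913.11, whose coding length is 372 amino acids, held 51.4% of HNRNPA1 reads in G14, 51.7% in G13, 53.2% in G12, 59.3% in G11, 63.8% in G5, 67.6% in the control and 71.0% in G3. ENST00000546500.5, of 320 amino acids, held 17.7% in G3, 18.9% in the control, 25.3% in G5, 29.1% in G11, 33.9% in both G12 and G13, and 37.0% in G14. The first was thus low where the second was high, with G3 and G14 at opposite ends. In TPM, ENST00000546500.5 went from 108 in the control to 254 in G14, which is 234% of the control, while ENST00000340913.11 stood at 387 in the control and 353 in G14. These 2 isoforms gave 7 of the isoform shares at least 10 points from the control. They also differ in annotated length, 1842 nt for ENST00000340913 and 4121 nt for ENST00000546500. Over all genes compared, the median log2 ratio of the 1548 shortest genes was -1.01 in G14 and -0.53 in G3. That of the 1548 longest was 0.067 in G14 and 0.20 in G3. The part of length in the HNRNPA1 shares was not tested. GENCODE 29 names 74 genes as HNRNPA1 pseudogenes, none of them listed in the table, and how reads shared with such copies were assigned is not given in the sources used here, so the HNRNPA1 values are uncertain to that extent.

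HNRNPA2B1 (ENSG00000122566, chr7:26173057-26201529, minus strand) encodes the A2 and B1 proteins. Ordered by level, the libraries gave 1168 TPM in G13, 1187 in G12, 1359 in G14, 1456 in G11, 1601 in the control, 1678 in G3 and 1821 in G5. G5 and G3 lay above the control and the other 4 below, down to 72.9% in G13, with every neighbouring pair separated by more than counting error. The B1 isoform ENST00000354667.8, which carries the AT-rich 36-nt exon printed above, nevertheless held 19.4% of reads in the control and between 19.3% and 21.0% in the G libraries. ENST00000618183.5 held 63.3% in the control and 64.4% to 66.1% in the G libraries, so the gene's level varied with its makeup nearly fixed.

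HNRNPA3 (ENSG00000170144, chr2:177212563-177223958, plus strand) encodes a further A/B-type protein. In ascending order the totals were 656 TPM in G3, 741 in the control, 784 in G12, 800 in G13, 854 in G11, 889 in G5 and 939 in G14. Here G3 was the one library below the control, and G14 reached 127% of it (interval 124 to 130). ENST00000392524.7 went from 68.4% of reads in the control to 77.3% in G14, a difference of 8.92 points, while ENST00000411529.6 held between 11.8% and 13.7% in all 7 libraries. Isoforms read in the control alone held 1.78% of HNRNPA3 reads there. Its isoforms of at least 5% held 87.3% of reads in the control, the lowest library, and at most 94.6% in a G library. Listing only isoforms with a control read favours such rises, and its part in the HNRNPA3 shares was not tested. The annotation lists 16 HNRNPA3 pseudogenes, so shared reads are uncertain here too.

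HNRNPD and HNRNPDL are neighbours on chromosome 4. HNRNPD (ENSG00000138668, chr4:82352498-82374503, minus strand) encodes AUF1, which binds AU-rich elements and directs mRNA decay. Lowest first, its values were 17.1 TPM in G12, 17.3 in G13, 19.6 in G11, 20.9 in G14, 23.8 in G5, 23.9 in the control and 34.0 in G3. G3 was the highest, at 142% of the control (interval 125 to 162), while the step from each of G12, G13 and G11 to the next library, and that from G5 to the control, lay within counting error. Between 395 and 607 reads stand behind each value.

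Isoforms of HNRNPD seen in the control alone held 18.2% of its control reads, against 0.762% over all genes compared. Isoforms seen only in a G library are not listed, which lowers the HNRNPD ratios to the control by an unknown amount. With reference identifiers only, the log2 ratio of HNRNPD was 1.13 in G3 and 0.68 in G5, in place of 0.50 and -0.0034. The libraries that lay below the control then lay at or above it: G14 went from -0.19 to 0.47, G11 from -0.28 to 0.29, G12 from -0.47 to 0.11 and G13 from -0.45 to 0.00126. All 6 HNRNPD usage distances (the fraction of reads that would have to change isoform to match the control) were at least 0.2, from 0.314 to 0.344, but with isoforms of a mean of at least 1 TPM they ran from 0.03 to 0.14. Over all genes, 11.7% of gene-by-library distances reached 0.2, and 12 of 60 did here: 6 of HNRNPD, 5 of HNRNPL and 1 of HNRNPA1. A 147-nt coding exon (chr4:82356537-82356683) was included in 45.3% of reference-named HNRNPD reads in the control (interval 38.4 to 52.4) and 59.6% in G14 (54.3 to 64.8). The other G libraries lay between, from 48.0% in G3 to 55.1% in G5. Only the G14 interval stood clear of the control. A further exon of 57 nt (chr4:82371528-82371584) was included in 83.3% to 88.9% of reads, with every interval overlapping the control.

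HNRNPDL (ENSG00000152795, chr4:82422564-82430408, minus strand) encodes a close relative of HNRNPD. From low to high its total was 213 TPM in G14, 216 in G12, 217 in G13, 270 in G11, 321 in the control, 326 in G5 and 390 in G3. G3 was highest, the G5 value could not be separated from the control, and G12, G13 and G14 formed a low group whose neighbours lay within counting error. The G14 value was 66.5% of the control (interval 63.9 to 69.2) and was the one HNRNPDL value past 1.5-fold; 31.0% of all genes were that much lower in G14. Its log2 ratio there, -0.59, was -0.47 under median-of-ratios scaling and -0.58 with reference identifiers only, past the line in neither case. With the length and GC trend removed it was -1.01, and G13 at -0.87 and G12 at -0.82 then also passed the line.

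ENST00000507721.5, which keeps the introns around a 105-nt exon near the 3′ end (chr4:82425563-82425667), held, of the reads of the HNRNPDL forms compared, 15.9% in the control, 17.2% in G11, 18.5% in G3, 19.0% in G13, 19.3% in G5, 19.4% in G12 and 23.6% in G14. It was above the control in G14 by the most, and only the G11 interval overlapped the control. Its level in G14 was 99.1% of the control (interval 90.3 to 109), while the spliced forms were at 60.8% (58.1 to 63.7). The kept introns are not its only difference from the main spliced isoform, ENST00000621267.4. It begins at chr4:82430469, downstream of chr4:82430791 for the main isoform, and its coding length is 301 amino acids against 420. The spliced 105-nt HNRNPDL exon, which GENCODE 29 places in transcripts annotated for nonsense-mediated decay, was included in 6.81% to 8.52% of reads, with every interval overlapping the control.

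HNRNPF (ENSG00000169813, chr10:43385617-43409166, minus strand) encodes a G-run binding regulator of splicing and polyadenylation. Ranked from low to high, the gene's values were 530 TPM in G12, 533 in G13, 583 in the control, 654 in G14, 675 in G11, 750 in G3 and 763 in G5. G5 and G3 were high and within counting error of each other, as were G12 and G13 at the low end. Of the HNRNPF isoforms, 5 held at least 5% of reads on average, and those with a GENCODE 29 entry share a coding length of 415 amino acids and differ outside it. ENST00000443950.6 held 35.0% in the control and 41.3% in G14, ENST00000682386.1 held 39.3% and 36.9%, and ENST00000357065.8 held 9.12% and 5.79%.

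HNRNPK (ENSG00000165119, chr9:83968083-83980616, minus strand) encodes the KH-domain protein that binds C-rich RNA. Its level, in ascending order, was 3306 TPM in the control, 3729 in G3, 4238 in G13, 4321 in G12, 4732 in G5, 4894 in G11 and 5717 in G14. The control was the lowest library and G14 the highest, at 173% of it (interval 171 to 175), where 15.5% of all genes rose that far. No neighbours in the order lay within counting error. The log2 ratio in G14, 0.79, was 0.43 with the length and GC trend removed and 0.42 against the median of the other 6 libraries, both under the 1.5-fold line.

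Like HNRNPR, HNRNPK rose with its makeup nearly fixed: no isoform share moved by more than 2.38 points. Forms whose last exon begins 60 nt further upstream held 72.9% of reference-named reads in the control, 71.7% in G3 and 74.2% to 75.2% in the other G libraries; at this depth every interval is clear of the control. Isoforms beginning at the upstream RefSeq start held 59.9% of HNRNPK reads in the control, and the G libraries ran from 58.5% in G3 to 63.5% in G13. The shifts are small beside the rise of the gene total.

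**Figure D3:**
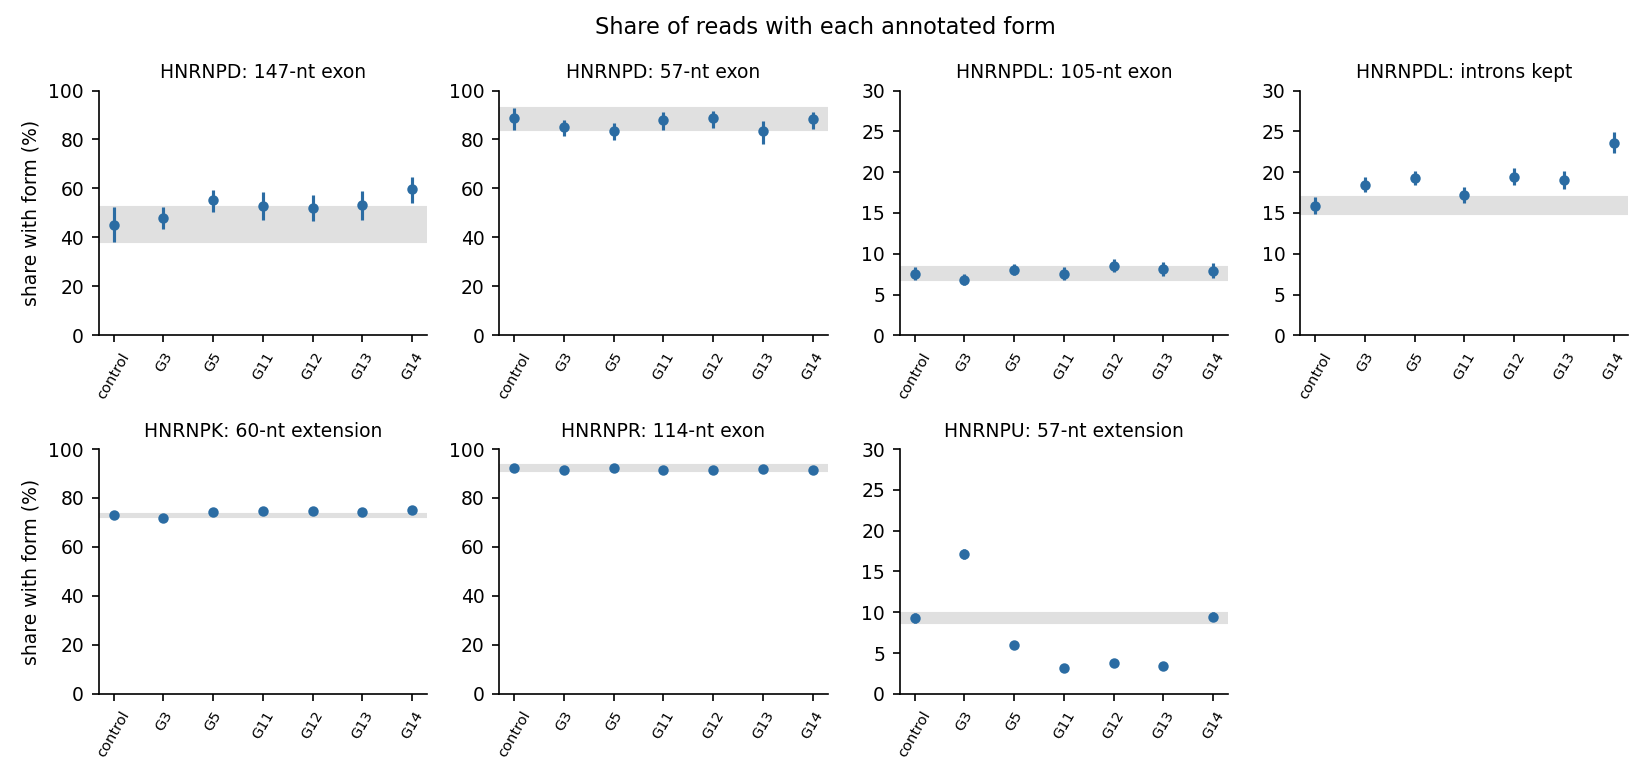
Share of reads with each annotated form, per library, for 7 forms of 5 genes. Points carry Wilson 95% intervals, the grey band is the control's interval, and vertical scales end at 100% or 30%. HNRNPU goes from 9.32% in the control to 17.2% in G3 and 3.22% in G11, while the HNRNPR exon stays above 91%.

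Over all members, 24 of 198 isoform-by-library shares lay at least 10 points from the control, where 8.72% of such values did over all genes compared. HNRNPL gave 12 of them, HNRNPA1 7 and HNRNPD 5, and the other 7 genes gave 0. The HNRNPD values were all rises. Its isoforms of at least 5% held 55.9% of its reads in the control, the lowest library, and at most 88.4% in a G library. Listing only isoforms with a control read favours such rises, and its part in the HNRNPD values was not tested. Of 33 isoforms, G12 had 6 past that line (background 7.94%), G13 had 5 (11.3%), G11 had 5 (7.64%), G14 had 4 (11.4%), G3 had 3 (7.04%) and G5 had 1 (6.92%). When shares were recomputed as parts of the reads with a reference identifier, which leaves out HNRNPL, 9 lay past 10 points.

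Reads that begin at an internal exon edge were also followed in the other genes. Their share of HNRNPA1 reads was 4.85% in G3, 5.13% in G5, 5.53% in the control, 6.52% in G11, 7.40% in G14, 7.53% in G12 and 9.16% in G13. For HNRNPR the share went from 2.85% in the control to 6.25% in G13, and for HNRNPA2B1 from 2.18% to 4.22%. Over the pooled reads of all genes compared it was 1.58% in G14, 1.55% in G13, 1.37% in G12, 1.27% in G11, 1.01% in G5, 0.989% in the control and 0.902% in G3. The median gene had a share of 0 in every library. HNRNPA1, HNRNPR and HNRNPA2B1 were lowest in G3 or G5 and highest in G13, and the pooled reads were lowest in G3 and highest in G14. HNRNPK ran from 0.746% in G5 to 1.23% in G13. HNRNPU was highest in G14, at only 0.0501%, and HNRNPDL had 4 such reads in the control and 0 in the G libraries. HNRNPA3, HNRNPD and HNRNPF had no such isoform.

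**Figure D4:**
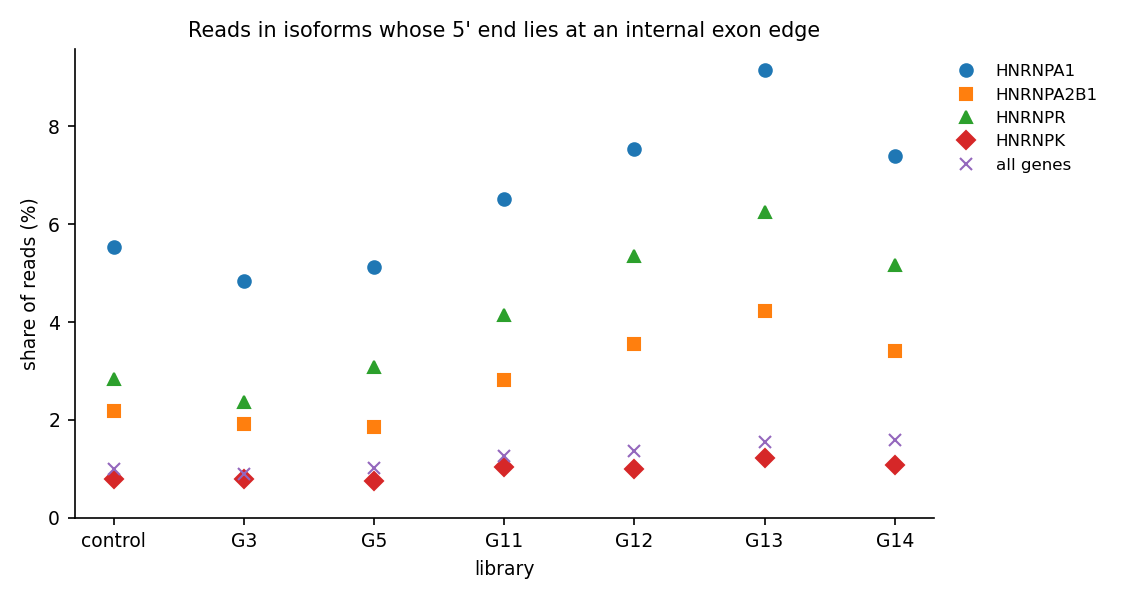
Share of reads in isoforms whose 5′ end lies within 5 nt of the 5′ edge of an internal exon, per library, for 4 genes and for all genes compared. HNRNPA1 rises to 9.16% in G13, where all genes together reach 1.55%.

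The other hnRNP and related genes give a frame for these levels. Of 18 such genes, 16 were listed and 15 passed the filter of 5 TPM; HNRNPA0 and PCBP1 were not listed. Their median log2 ratio ran from -0.03 in G12 and -0.02 in G13 through 0.03 in G14, 0.14 in G11 and 0.17 in G5 to 0.20 in G3. Past 1.5-fold, 6 of the 15 were lower in G13 and 3 in G12, against 2 in G14, 1 in G11 and 0 in G3 and G5. Over all genes compared, the share that much lower was 31.0% in G14, 29.1% in G13, 22.6% in G12, 22.5% in G11, 17.2% in G5 and 12.3% in G3, so the G12 count is near its background. The higher counts were 2 in G14 (15.5% of all genes), 0 in G5 (3.71%) and 1 in each other G library (5.08% to 8.71%), again near the background. Among the largest median differences over the G libraries were those of HNRNPLL (0.62), PTBP1 (-0.51) and HNRNPAB (-0.51). PTBP1, the polypyrimidine tract binding protein, stood at 185 TPM in the control, 282 in G3 and 67.9 in G13, and so had its extremes in the same libraries as HNRNPL.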

How the data were processed

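Polyadenylated RNA of 7 HUES66 libraries, 1 per group, was read from 1 isoform table. It holds the authors' counts of full-length reads per isoform and the deposited TPM, which is the count scaled per library with no length term. Per the submitters' processing notes, minimap2 2.17 and GRCh38 (hg38) were used; the isoform-assignment software, its filters and its annotation are not given in the sources used here. Every listed isoform has at least 1 control read, and the listed isoforms hold 98.1% to 98.6% of the reads of each G library, so isoforms absent from the control are not seen.

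Counts were summed per gene and recomputed as TPM on the library totals of 16801842 to 26678538 reads. Differences are log2(TPM + 0.5) against the control. A gene was called at 1.5-fold (genes with a mean of at least 5 TPM), an isoform share at 10 points (isoforms with at least 5% of their gene on average) and a usage distance at 0.2. Ratio intervals are exact Clopper-Pearson and share intervals Wilson, both at 95%. Zero counts allow up to 3 reads, or 0.112 to 0.179 TPM. No test between groups was possible.

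Exons, coding lengths and sequences come from GENCODE 29. Identifiers were matched without their version, and the version in the annotation is earlier for ENST00000340913, ENST00000618183, ENST00000640218, ENST00000313899, ENST00000376263, ENST00000302271 and ENST00000392524. Isoforms with a hashed identifier were placed by their ends only, against RefSeq starts (within 50 nt) and internal exon edges (within 5 nt); these end classes were added after the data were seen. Alternatives covered the pseudocount, scaling, isoform filters, reference library, call sizes, a length and GC trend, and leaving out each G library. For HNRNPL, which has no reference-named isoform, length and GC were means over its GENCODE 29 protein-coding transcripts. The members and gene lists were chosen with earlier results of these data known. Genes named are the 10 members, their isoforms of at least 5%, RBFOX2, related genes with the 4 largest median ratios (1 of them is not reported here; SYNCRIP was added as the relative of HNRNPR), and the 2 genes nearest in level to a member; HNRNPD's nearest are given with the other observations. Python 3.11.15, numpy 2.4.6, pandas 2.3.3 and scipy 1.17.1 were used.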

Additional observations from a re-analysis of the deposited data

How the results depend on the processing

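No paired analysis was possible because every group has 1 library. Values at least 1.5-fold from the control numbered 13; they numbered 3 at a 2-fold call and 4 with the median of the other 6 libraries as reference, which took all 6 HNRNPR values under that line, with G12 at -0.14 and G13 at -0.22. With any G library left out they numbered 10 to 12. Here and in the share and distance counts below, leaving out a library only takes away its own values. Isoform shares past 10 points numbered 24; they were 9 with shares taken among reads with a reference identifier, 55 at a 5-point call, 14 against the median share of the other 6 libraries, and 18 to 23 with a G library left out. Usage distances of at least 0.2 numbered 12, or 5 with isoforms of at least 1 TPM (4 of HNRNPL and 1 of HNRNPA1), and 9 to 11 with a G library left out.

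The members' median log2 ratio over the 6 G libraries was 0.11, and 0.090 to 0.16 with each left out. With median-of-ratios scaling the median was 0.27 in G14, -0.061 in G13, -0.039 in G12, 0.15 in G11 and 0.18 in G5. With reference identifiers only it was 0.25, 0.00126, 0.036, 0.21 and 0.39 for the same libraries in that order, and with isoforms of at least 1 TPM 0.23, -0.042, -0.035, 0.18 and 0.37. With the length and GC trend removed it was -0.053, -0.40, -0.33, -0.068 and 0.16. Against the median of the other 6 libraries it was 0.27 in G3, 0.018 in G11, -0.33 in G12 and -0.34 in G13. The medians of G12 and G13 thus sat on either side of 0 depending on the isoforms summed; the cause was not tested. Pseudocounts of 0.1 and 1 TPM moved none of the 60 member values by more than its counting error. Depth limits HNRNPD most, with 395 to 607 reads per library. Exon forms made up wholly of transcripts whose version equals that of the annotation are those of HNRNPDL.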

Other observations

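By the SD of the log2 difference over the 7 libraries, the genes nearest in level pattern to HNRNPD were MYBL2, a cell-cycle transcription factor, and OAT, a mitochondrial aminotransferase, both at 0.07. OAT stood at 117 TPM in the control, 174 in G3 and 83.9 in G12, and MYBL2 at 11.5, 17.8 and 8.77 TPM in those libraries. HNRNPUL2, a relative of HNRNPU, ranged from 0.0877 TPM (G13) to 0.714 TPM (control), below the level compared here.

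Isoforms read in the control and in no G library made up 33.0% of the isoforms of all genes compared, 53.7% of those of HNRNPD and 46.3% of those of HNRNPU. The table lists only isoforms with a control read, so the reverse count cannot be made.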
